A study of Homo sapiens with 21 samples.

Results

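ZEB1, ZEB2, SNAI1, SNAI2, TWIST1, TWIST2, PRRX1 and TCF4 encode DNA-binding factors that can move epithelial cells towards a mesenchymal state, the change called epithelial-mesenchymal transition (EMT). The 8 genes were taken by name, each through its Ensembl identifier, from tables of 60617 genes. Messenger RNA had been sequenced in 21 libraries of SUM149PT, a human inflammatory breast cancer cell line labelled as lacking estrogen and progesterone receptors. The lines were clones M1, M2, EM1, EM2, EM3 and E and the uncloned parental line (Parental), each with 3 libraries and no treatment, and all grown under the same stated conditions. The series title is about an intermediate EMT state, and the labels attach no phenotype to a clone beyond its letter. Each clone name stands for 1 clone, so a difference between 2 clones cannot be told apart from the differences between the cells that founded them.

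The ZEB, SNAIL (SNAI1) and SLUG (SNAI2) proteins are zinc-finger repressors that bind the E-box CAGGTG in promoters of epithelial genes such as CDH1, the gene of E-cadherin. TWIST1 and TWIST2 are basic helix-loop-helix factors that pair with E proteins, TCF4 is such an E protein, and PRRX1 is a homeobox factor of mesenchymal tissue. In epithelial cells the microRNAs of the miR-200 family and miR-205 hold ZEB1 and ZEB2 messenger RNA down, and the ZEB proteins in turn repress the genes of the miR-200 family.

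Totals of expected counts, the reads that the authors' RSEM run assigned to genes, were 24602417 to 48149939 per library. Levels are TPM, length-corrected transcript shares, which the authors scaled by transcript length and library, so they can be compared between genes. Effective transcript length divided the clone libraries into 2 groups, below called the short and the long set. A set of 8 libraries, E in full and replicate 3 from each remaining clone, was short, with a mean effective length of 1907 to 1956 bases over expressed genes. The long set held replicates 1 and 2 of the other clones (10 libraries, 2017 to 2118 bases), and the Parental libraries lay at 1967 to 2020 bases. Estrogen receptor ESR1 averaged at most 1.71 ± 0.82 TPM (SD, n = 3) in a line, in EM3. Endothelial markers summed to at most 1.1 TPM in a library, and of the blood markers CD68 carried nearly the whole level. The 4 fibroblast markers summed to 2302 to 3233 TPM in M1 libraries and to 8.99 to 265 TPM in all other libraries. DCN supplied most of it at 2001 ± 384 TPM in M1 (SD, n = 3), while LUM averaged 0.24 ± 0.15 TPM there.

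The microRNAs and the stretches of ZEB1 and ZEB2 that match their seeds are printed first, because this pairing is the known brake on both genes. The mature sequences are from RefSeq (GRCh38.p14), 5′ to 3′, with the seed, bases 2 to 8, in capitals, and they fall into 3 groups by shared seed.
hsa-miR-200b-3p: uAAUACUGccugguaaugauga
hsa-miR-200c-3p: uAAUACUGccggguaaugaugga
hsa-miR-429: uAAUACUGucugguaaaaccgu
hsa-miR-200a-3p: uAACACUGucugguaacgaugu
hsa-miR-141-3p: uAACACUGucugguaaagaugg
hsa-miR-205-5p: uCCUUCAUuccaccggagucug

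The 3′ UTR of ZEB1 (2549 bases, GENCODE 29) held 6 matches to the first seed, CAGTATT, on the transcript strand. They are printed with 15 bases before and 4 after, and with the match in capitals.
ZEB1 site 1: attgttttatcttatCAGTATTatca
ZEB1 site 2: atgctaaatccgcttCAGTATTttat
ZEB1 site 3: gtaagtgccatttctCAGTATTttca
ZEB1 site 4: ctgatttttacctatCAGTATTattt
ZEB1 site 5: tgtcttcaaacctggCAGTATTaata
ZEB1 site 6: tcttttcatcattatCAGTATTttct

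The 3′ UTR of ZEB2 (5370 bases) held 5 such matches.
ZEB2 site 1: cgcactaccatacatCAGTATTttta
ZEB2 site 2: cgcactacaatgcatCAGTATTatga
ZEB2 site 3: ttgaagcacccatgtCAGTATTagaa
ZEB2 site 4: gttcattaattttgtCAGTATTacac
ZEB2 site 5: tcatactgtagtgtaCAGTATTatag

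At least 6 CAGTATT matches in the first 2549 bases occurred in 1 of 4269 genes with a 3′ UTR that long (0.02%), the gene being ZEB1 itself. At least 5 in 5370 bases occurred in 2 of 1057 genes (0.19%), ZEB2 included. The second seed match, CAGTGTT, stood 3 times in ZEB1 and 4 times in ZEB2, a number reached by 0.98% and 1.14% of 3′ UTRs of those lengths. The miR-205 match, ATGAAGG, stood once in ZEB1 (reached by 18.62%). SNAI2 held 1 CAGTATT match (13.24%), and TCF4 held 1 CAGTATT (52.14%) and 2 CAGTGTT (19.98%). The letters of these matches were not in the 3′ UTRs of SNAI1 (830 bases), TWIST1 (706), TWIST2 (737) and PRRX1 (3233). A match is a run of letters, not evidence of binding, and mature microRNAs are too short for these libraries to measure.

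A pair of RefSeq promoters (GRCh38.p14, 250 bases before to 50 after the start) show the E-box CAGGTG or, on the other strand, CACCTG, in capitals. Both genes were at or near 0 counts in M1 and M2. CRB3 encodes a polarity protein of the epithelial surface (chr19:6464021-6464320, plus strand), and MIR200CHG is the host transcript of miR-200c and miR-141 (chr12:6962995-6963294, plus strand).
CRB3: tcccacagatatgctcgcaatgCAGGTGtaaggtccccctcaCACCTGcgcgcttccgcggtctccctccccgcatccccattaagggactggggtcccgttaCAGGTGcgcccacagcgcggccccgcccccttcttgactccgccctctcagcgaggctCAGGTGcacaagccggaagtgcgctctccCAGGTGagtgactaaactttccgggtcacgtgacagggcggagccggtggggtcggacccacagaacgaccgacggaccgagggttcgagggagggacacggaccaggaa
MIR200CHG: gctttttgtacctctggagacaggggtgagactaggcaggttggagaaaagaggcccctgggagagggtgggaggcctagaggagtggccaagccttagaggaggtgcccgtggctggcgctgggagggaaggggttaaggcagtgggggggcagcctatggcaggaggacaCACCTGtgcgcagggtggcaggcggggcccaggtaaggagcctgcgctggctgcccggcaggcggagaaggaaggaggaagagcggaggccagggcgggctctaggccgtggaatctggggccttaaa

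CRB3 held 5 E-boxes in those 300 bases, a number reached by 0.09% of 35116 promoters. MIR200CHG held 1, at base -78 from the start, and 20.59% of promoters held at least 1. The promoter of MIR205HG, the host transcript of miR-205, held 0 E-boxes, and that gene had 0 counts in M1. Of 23 epithelial genes listed as repressed by ZEB or SNAIL, 12 had a promoter in the table, and 9 of these had an E-box in at least 1 promoter (11 of 16 promoters). CLDN1, CLDN4 and KRT8 had 0 E-boxes, with edgeR log2 fold changes of -4.60, -10.66 and -3.19 in M1 against E. Whether E-boxes go with the falls was not tested. Of the 8 factors themselves, 5 had a promoter there, and ZEB1 alone among ZEB1, ZEB2, TWIST2, PRRX1 and TCF4 had an E-box, in 2 of its promoters. These were 2 of the 20 promoters of the 5 genes, beside 20.59% of all promoters. Most of the 20 belonged to TCF4 and ZEB1.

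ZEB1 (ENSG00000148516, chr10:31318495-31529814, plus strand) had the widest span of the 8 genes over the lines. It stood at 28.0, 39.99 and 32.0 TPM in M1 and at 23.7, 33.9 and 22.6 TPM in M2. Among the EM clones it stood at 0.30, 0.73 and 0.81 TPM in EM1, at 1.98, 1.37 and 0.63 TPM in EM2 and at 3.98, 2.53 and 3.64 TPM in EM3. E held 0.08, 0.35 and 0.09 TPM, and Parental 0.26, 0.11 and 0.09 TPM. Every M library was above every other library, and every EM3 library was above every library of EM1, EM2, E and Parental. The ranges of M1 and M2, of EM2 and EM1, of EM1 and E, and of E and Parental overlapped. The highest line mean was 217 times the lowest, against 3.94 times for TCF4 to 50.9 times for PRRX1 among the other 7 genes. In bulk libraries such as these, fewer cells of a type and less RNA per cell cannot be told apart.

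Against E, ZEB1 rose in all 5 clones. The log2 fold change, from edgeR on counts, was 7.95 ± 0.54 (SE) in M1, 7.54 ± 0.53 in M2, 2.34 ± 0.46 in EM1, 2.96 ± 0.46 in EM2 and 4.48 ± 0.48 in EM3. The BH-adjusted p from edgeR was 3.53e-09 in M1, 1.42e-09 in M2, 0.00179 in EM1, 0.00025 in EM2 and 5.09e-06 in EM3. The counts in E were 18, 23 and 16 reads, so the size of the fold rests on few reads there. The EM1 call was lost in 1 of 31 alternatives, the test on log2(TPM + 1) (adjusted p = 0.192), and the other 4 calls held in all 31. Between EM clones ZEB1 rose in EM3 over EM1 by 2.14 ± 0.42 (edgeR, BH-adjusted p = 0.0294) and in EM3 over EM2 by 1.52 ± 0.40 (edgeR, BH-adjusted p = 0.0267). These calls were lost in 7 and 6 of 31 alternatives, up to adjusted p = 0.196 and 0.129. Leaving out EM1 replicate 1, 2 or 3 or EM3 replicate 1 or 3 ended the first, and leaving out EM2 replicate 2 or 3 or EM3 replicate 1 or 3 ended the second. M2 against M1 gave -0.41 ± 0.39 (edgeR, BH-adjusted p = 0.42).

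The antisense transcript ZEB1-AS1 shares 366 exonic bases with ZEB1 on the other strand, and the strand setting of the counting is not given in the sources used here, so reads over those bases cannot be told apart. ZEB1-AS1 held 662, 663 and 446 counts in M1 and 87, 106 and 102 counts in E. It also rose in all 5 clones against E, by 2.75 in M1, 2.03 in M2, 2.18 in EM1, 1.53 in EM2 and 2.51 in EM3 on the log2 scale (edgeR, BH-adjusted p = 0.000181, 0.00126, 0.00327, 0.0317 and 0.00116). The EM2 call was lost in 7 of 31 alternatives, with a library set term (adjusted p = 0.0881), with limma-voom (0.0529) and without EM2 replicate 1 or 2 or E replicate 1, 2 or 3 (up to 0.101).

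ZEB2 (ENSG00000169554, chr2:144364364-144524583, minus strand), the paralog of ZEB1, covered a narrower range from a higher floor. It stood at 19.2, 18.5 and 13.4 TPM in M1 and at 11.9, 19.8 and 4.23 TPM in M2. Among the EM clones it stood at 3.73, 3.65 and 1.83 TPM in EM1, at 4.93, 10.4 and 5.09 TPM in EM2 and at 3.25, 4.55 and 3.91 TPM in EM3. E held 2.59, 2.53 and 2.11 TPM, and Parental 2.58, 1.77 and 3.85 TPM. Every M1 library was above every EM, E and Parental library, while M2 replicate 3 lay inside the range of EM3. ZEB2 rose in M1 by 2.98 ± 0.46 (edgeR, BH-adjusted p = 5.38e-05) and in M2 by 2.397 ± 0.45 (edgeR, BH-adjusted p = 0.000201), calls that held in all 31 alternatives. In EM2 it rose by 1.44 ± 0.43 over E (edgeR, BH-adjusted p = 0.0325), a call lost in 8 of 31 alternatives. Those 8 included the library set term (adjusted p = 0.0978), leaving out EM2 replicate 2 (adjusted p = 0.187) and leaving out E replicate 1, 2 or 3 (adjusted p = 0.0881 to 0.106). EM1 and EM3 gave 0.15 ± 0.43 and 0.60 ± 0.43 against E, and -0.59 and -0.04 with a library set term.

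**Figure D1:**
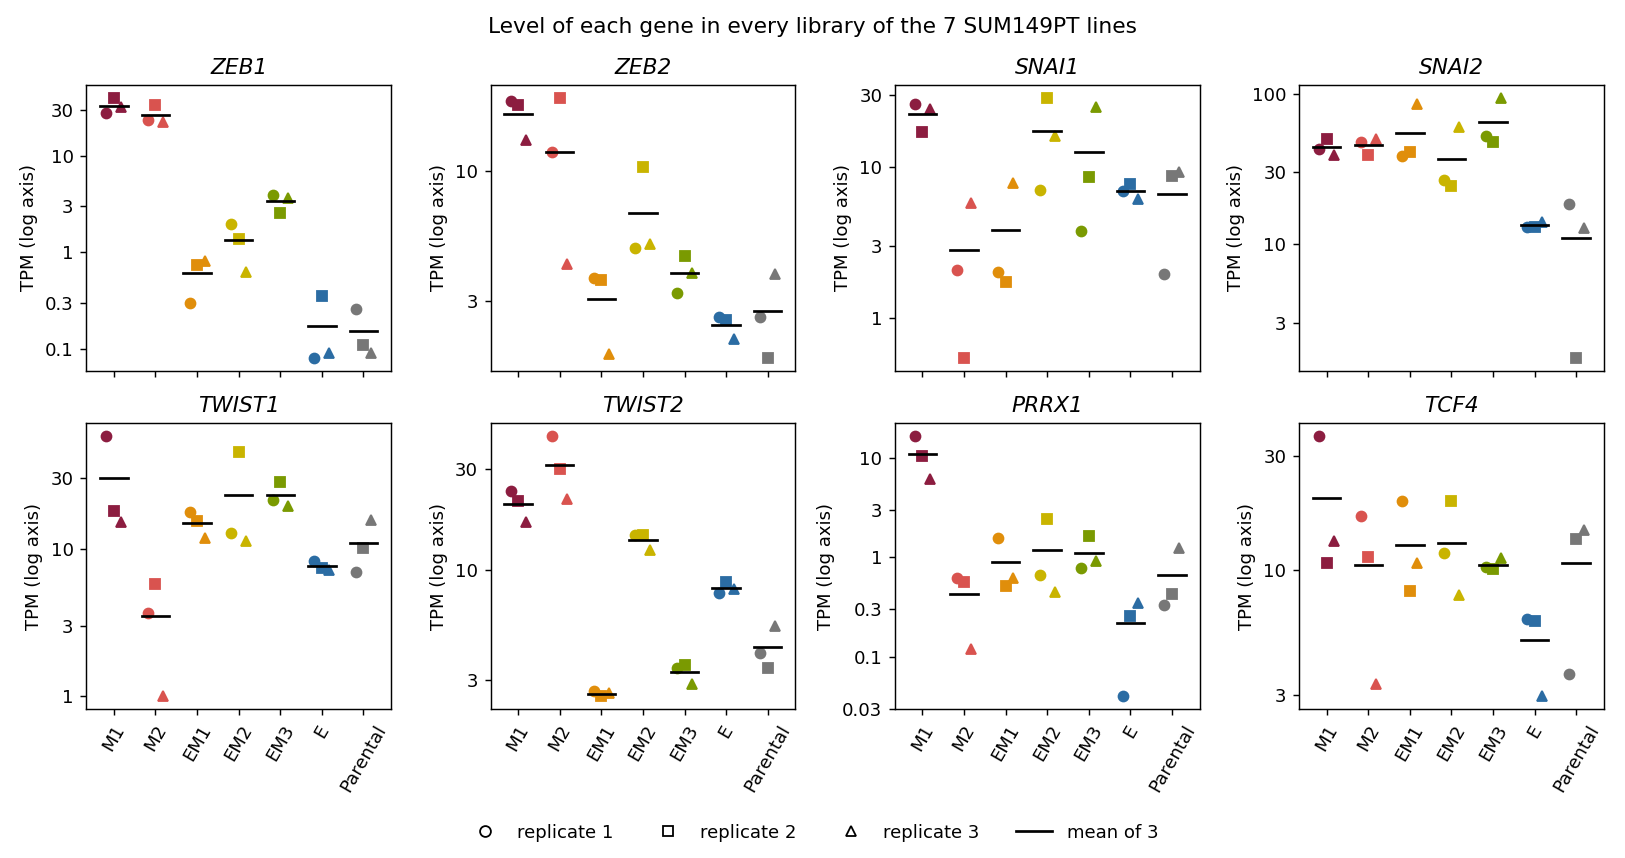
TPM of each of the 8 genes in every library, on log axes, for M1, M2, EM1, EM2, EM3, E and Parental from left to right, with a mark for each replicate and a bar at the mean of 3 libraries. ZEB1 and ZEB2 are highest in M1 and M2, TWIST2 is lowest in EM1 and EM3, TWIST1 is lowest in M2, and PRRX1 is highest in M1.

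SNAI1 (ENSG00000124216, chr20:49982999-49988886, plus strand) encodes SNAIL, an unstable repressor whose messenger RNA responds quickly to growth factors. It stood at 26.0, 16.9 and 24.1 TPM in M1 and at 2.08, 0.54 and 5.77 TPM in M2. The EM clones gave 2.00, 1.73 and 7.74 TPM in EM1, 7.00, 28.5 and 15.9 TPM in EM2 and 3.75, 8.60 and 24.9 TPM in EM3. E held 6.92, 7.64 and 6.09 TPM, and Parental 1.95, 8.69 and 9.21 TPM. The libraries of each EM clone lay far apart, and of the 21 pairs of lines 6 had ranges that did not overlap, among them M2 and M1. How many such pairs other genes have is not given here, so the number describes SNAI1 alone.

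SNAI1 passed the edgeR test in M2 against M1, where it fell by 2.74 ± 0.87 on the log2 scale (BH-adjusted p = 0.0169). That call was lost on leaving out M2 replicate 1 (adjusted p = 0.0652) or M2 replicate 2 (adjusted p = 0.0587). Against E the test did not pass in any clone, with unadjusted edgeR p-values of 0.136 in M1, 0.1 in M2, 0.195 in EM1, 0.25 in EM2 and 0.532 in EM3, nor did DESeq2 or limma-voom pass in these 5 comparisons. Other settings did pass. With a library set term M1 gave 2.45 (edgeR, BH-adjusted p = 0.0129) and EM2 gave 2.198 (0.0471), with the libraries of M1 and E alone M1 gave 1.27 (0.00171), and with the replicate block M2 gave -1.90 (0.03). Without the filter on low counts M1, M2, EM1 and EM2 passed, and M2 passed without M2 replicate 3.

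SNAI2 (ENSG00000019549, chr8:48917604-48921740, minus strand) encodes SLUG, a repressor that basal breast epithelium also makes. It stood at 42.8, 49.97 and 39.2 TPM in M1 and at 47.9, 39.2 and 50.2 TPM in M2. The EM clones gave 38.3, 41.0 and 84.7 TPM in EM1, 26.7, 24.2 and 60.1 TPM in EM2 and 52.4, 47.9 and 93.5 TPM in EM3. E held 13.0, 13.0 and 14.1 TPM, and Parental 18.4, 1.75 and 12.7 TPM. Every library of the 5 M and EM clones was above every E and Parental library, and the ranges of the 5 clones overlapped each other in the order of their means. In each EM clone replicate 3, the library of the short set to which all of E belongs, was the highest.

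Against E, SNAI2 rose by 1.47 ± 0.55 in M1 (edgeR, BH-adjusted p = 0.0442), by 1.56 ± 0.55 in M2 (0.0244), by 1.82 ± 0.56 in EM1 (0.0299) and by 1.95 ± 0.56 in EM3 (0.0214). EM2 gave 1.25 ± 0.55 (edgeR, BH-adjusted p = 0.145). With a library set term the changes were 2.01, 2.04, 2.23 and 2.37 in M1, M2, EM1 and EM3, and the edgeR test passed in each of them (BH-adjusted p = 0.00598 to 0.0113). Leaving out E replicate 1, 2 or 3 ended the calls in M1, M2, EM1 and EM3, with adjusted p up to 0.11. The M1 call was lost in 10 of 31 alternatives, also without M1 replicate 1, 2 or 3 (up to adjusted p = 0.113) and without M2 replicate 1, EM1 replicate 2, EM3 replicate 1 or Parental replicate 3 (0.0507 to 0.0529). The M2, EM1 and EM3 calls were lost without replicate 3 of that clone.

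TWIST1 (ENSG00000122691, chr7:19020991-19117672, minus strand) differed in direction between the 2 M clones. It stood at 57.5, 17.9 and 15.1 TPM in M1 and at 3.69, 5.73 and 1.00 TPM in M2. The EM clones gave 17.8, 15.4 and 11.7 TPM in EM1, 12.8, 45.1 and 11.2 TPM in EM2 and 21.4, 28.2 and 19.4 TPM in EM3. E held 8.20, 7.44 and 7.22 TPM, and Parental 6.97, 10.2 and 15.5 TPM. Every M1 and EM library was above every E library, and every M2 library was below every library of the other 6 lines. TWIST1 rose in M1 over E by 1.57 ± 0.51 (edgeR, BH-adjusted p = 0.0213) and fell in M2 by 1.48 ± 0.51 (edgeR, BH-adjusted p = 0.0221). In M2 against M1 it fell by 3.05 ± 0.54 (edgeR, BH-adjusted p = 0.000164), a call that held in all 31 alternatives.

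The M1 call of TWIST1 was lost in 5 of 31 alternatives: without M1 replicate 1 the adjusted p was 0.228, with a library set term 0.125, and without E replicate 1, 2 or 3 it was 0.056 to 0.067. The M2 call was lost without M2 replicate 3 (adjusted p = 0.0882) and in both tests on TPM (0.089 and 0.0583). The EM clones gave 0.72 ± 0.50 in EM1, 1.27 ± 0.50 in EM2 and 1.27 ± 0.50 in EM3 against E (edgeR, BH-adjusted p = 0.328, 0.105 and 0.0895).

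TWIST2 (ENSG00000233608, chr2:238848032-238910543, plus strand), the paralog of TWIST1, was higher in EM2 than in EM1 and EM3. It stood at 23.6, 21.1 and 16.8 TPM in M1 and at 42.9, 29.9 and 21.6 TPM in M2. EM1 held 2.64, 2.50 and 2.60 TPM and EM3 held 3.41, 3.54 and 2.85 TPM, whereas EM2 held 14.5, 14.6 and 12.4 TPM. E held 7.72, 8.70 and 8.12 TPM, and Parental 4.01, 3.41 and 5.41 TPM. Of the 21 pairs of lines 19 had ranges that did not overlap, the exceptions being M2 with M1 and Parental with EM3. The number of such pairs over all genes is not given here.

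Against E, TWIST2 rose by 0.91 ± 0.18 in M1 and by 1.60 ± 0.18 in M2, and fell by 1.99 ± 0.19 in EM1 and by 1.74 ± 0.18 in EM3 on the log2 scale. The edgeR BH-adjusted p was 0.000603 in M1, 7.75e-07 in M2, 1.47e-06 in EM1 and 5.09e-06 in EM3, and these 4 calls held in all 31 alternatives. EM2 gave 0.46 ± 0.18 against E (edgeR, BH-adjusted p = 0.0995), and passed in 4 alternatives, DESeq2 (adjusted p = 0.0426), the libraries of EM2 and E alone (0.0361), log2(TPM + 1) (0.0346) and log2(TPM + 0.1). Set against each other, EM2 was above EM1 by 2.45 ± 0.19 (edgeR, BH-adjusted p = 1.23e-07) and EM3 was below EM2, at -2.197 ± 0.19 (edgeR, BH-adjusted p = 5.12e-07), again in all 31 alternatives. EM3 against EM1 gave 0.25 ± 0.18 (edgeR, BH-adjusted p = 1). In M2 against M1 TWIST2 rose by 0.69 ± 0.18 (edgeR, BH-adjusted p = 0.00439), a call lost without the filter on low counts (adjusted p = 0.111), with the libraries of M1 and M2 alone (0.0834) and on log2(TPM + 0.1) (0.0539).

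PRRX1 (ENSG00000116132, chr1:170662728-170739419, plus strand) was above 2.46 TPM in M1 libraries only. It stood at 16.5, 10.4 and 6.10 TPM in M1 and at 0.62, 0.56 and 0.12 TPM in M2. The EM clones gave 1.58, 0.51 and 0.62 TPM in EM1, 0.66, 2.46 and 0.45 TPM in EM2 and 0.78, 1.65 and 0.92 TPM in EM3. E held 0.04, 0.26 and 0.35 TPM, and Parental 0.33, 0.43 and 1.24 TPM. The counts were 1378, 947 and 482 reads in M1, 29, 24 and 13 in M2, and 7, 6 and 5 in E. At such counts TPM also moves with the isoform to which RSEM gave the reads.

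PRRX1 rose in all 5 clones against E, by 7.42 ± 0.70 in M1, 2.26 ± 0.64 in M2, 2.90 ± 0.63 in EM1, 2.84 ± 0.63 in EM2 and 4.31 ± 0.64 in EM3 (edgeR, BH-adjusted p = 2.32e-07, 0.00667, 0.00396, 0.00514 and 0.00016). The M1 call held in all 31 alternatives. The M2 call was lost with limma-voom (adjusted p = 0.0554). On log2(TPM + 1) the M2, EM1, EM2 and EM3 calls were lost, with limma adjusted p of 0.622, 0.238, 0.179 and 0.128. On log2(TPM + 0.1) those in M2, EM1 and EM2 were lost too (limma adjusted p = 0.382, 0.095 and 0.0768). With a library set term all 4 were kept, at 1.29 in M2, 1.85 in EM1, 1.93 in EM2 and 3.44 in EM3. In M2 against M1 PRRX1 fell by 5.16 ± 0.62 (edgeR, BH-adjusted p = 2.08e-06), also in all 31 alternatives. The rises depend on the line compared. Against Parental PRRX1 gave 3.68 ± 0.57 in M1 and -1.485 ± 0.56 in M2 (edgeR, BH-adjusted p = 7.9e-05 and 0.0365). The EM clones were not tested against Parental.

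TCF4 (ENSG00000196628, chr18:55222331-55664787, minus strand), the E protein E2-2, differed least between lines. It stood at 36.4, 10.8 and 13.2 TPM in M1 and at 16.9, 11.4 and 3.33 TPM in M2. The EM clones gave 19.5, 8.15 and 10.7 TPM in EM1, 11.8, 19.4 and 7.87 TPM in EM2 and 10.3, 10.1 and 11.3 TPM in EM3. E held 6.25, 6.13 and 2.95 TPM, and Parental 3.66, 13.5 and 14.8 TPM. Of the 21 pairs of lines 4 had ranges that did not overlap, a number not given here for all genes. The annotation used in the authors' RSEM run holds 91 transcripts for TCF4.

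On counts TCF4 rose against E by 2.12 ± 0.46 in M1, 1.86 ± 0.46 in M2, 1.57 ± 0.46 in EM1, 1.66 ± 0.46 in EM2 and 1.63 ± 0.46 in EM3 (edgeR, BH-adjusted p = 0.00154, 0.0025, 0.0231, 0.0195 and 0.0189). The M1 call held in all 31 alternatives, and the calls in M2, EM1, EM2 and EM3 were lost in 2, 9, 7 and 7 of them. Both tests on TPM were among the losses in each of M2, EM1, EM2 and EM3. Their limma adjusted p was 0.2855 and 0.2853 in M2, the 2 losses there, and 0.16 to 0.229 in the EM clones. With a library set term the changes were 1.35 in M1, 0.92 in M2, 0.78 in EM1, 0.88 in EM2 and 0.88 in EM3, and that in EM1 did not pass (edgeR, BH-adjusted p = 0.0677). Leaving out E replicate 1, 2 or 3 ended the calls in EM1, EM2 and EM3, up to adjusted p = 0.0865. So did leaving out replicate 1 or 2 of the EM clone itself, up to adjusted p = 0.102. Against Parental TCF4 was not called, with 0.455 ± 0.45 in M1 and 0.19 ± 0.44 in M2 (edgeR, BH-adjusted p = 0.504 and 0.754). The EM clones were not tested against Parental.

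**Figure D2:**
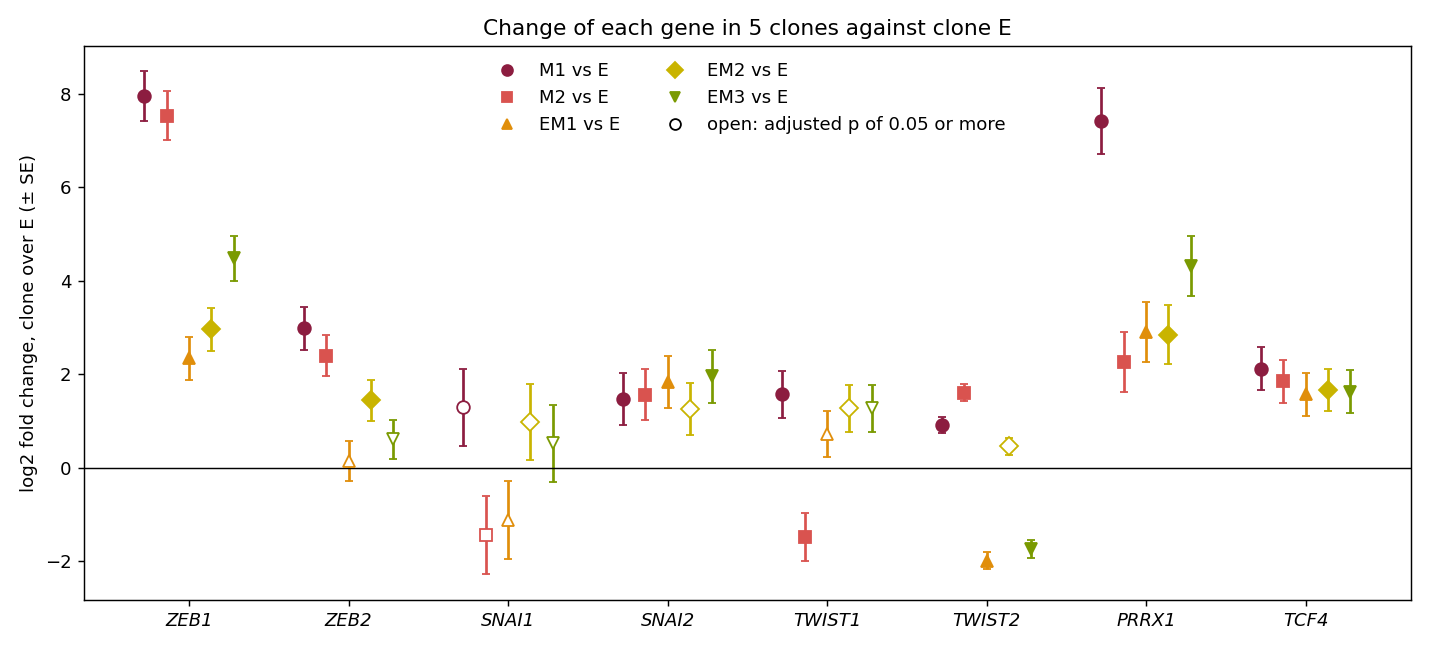
Log2 fold change with its standard error for each gene in M1, M2, EM1, EM2 and EM3 over E, from edgeR on counts, with filled marks where the BH-adjusted p was under 0.05 and open marks otherwise. ZEB1, PRRX1 and TCF4 lie above 0 with filled marks in all 5 clones, SNAI1 has open marks in all 5, and TWIST2 lies below 0 in EM1 and EM3.

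Counted over the 8 genes, M1 had the most calls in 1 direction. Called means a BH-adjusted p under 0.05 over 18632 genes with enough counts to be tested, all 8 members among them. In M1 against E 7 of the 8 rose, all but SNAI1, where 18.1% of all genes tested rose and 18.1% fell. The median log2 fold change was 1.84 over the 8 genes and 0.03 over all genes. In M2 against E 6 rose and TWIST1 fell, beside 24.6% of all genes higher and 26.8% lower, with medians of 1.73 and 0.01.

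In EM1 against E ZEB1, SNAI2, PRRX1 and TCF4 rose and TWIST2 fell, beside 9.84% of all genes higher and 8.09% lower. The medians were 1.15 over the 8 genes and 0.04 over all genes. EM3 against E had the same 5 genes called with the same signs, beside 9.36% higher and 7.96% lower, with medians of 1.45 and 0.03. In EM2 against E ZEB1, ZEB2, PRRX1 and TCF4 rose, beside 6.95% higher and 6.95% lower, with medians of 1.36 and 0.01. The 5 comparisons share the 3 E libraries, so their calls are not independent of each other.

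Between the M clones 4 of the 8 were called: TWIST2 was higher in M2, and SNAI1, TWIST1 and PRRX1 were lower in M2 than in M1. Of all genes tested 19% were higher and 22.2% lower in that comparison. TWIST2 was the member called in EM2 against EM1 (3.5% of all genes higher, 4.63% lower), and ZEB1 the member called in EM3 against EM1 (0.172% higher, 0.199% lower). In EM3 against EM2 ZEB1 was higher and TWIST2 lower (3.93% and 2.81% of all genes). The labels do not say that replicate numbers are pairs. Same-numbered libraries deviated together in EM2 against EM1 and EM3 against EM2. Replicate 3 is the short-set library of each EM clone, so pairs and library set cannot be told apart there. With the replicate number as a block, ZEB2 was called higher in EM2 than in EM1 as well (1.303, edgeR, BH-adjusted p = 0.0232), and so was SNAI1 (2.37, edgeR, BH-adjusted p = 0.042). PRRX1 was then called higher in EM3 than in EM2 (1.49, edgeR, BH-adjusted p = 0.0443). The block also raised the number called over all genes, from 1516 to 1984 in EM2 against EM1 and from 1255 to 1603 in EM3 against EM2.

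Against Parental, M1 had 5 genes higher, ZEB1, ZEB2, SNAI2, TWIST2 and PRRX1, beside 13.1% of all genes higher and 14% lower. M2 had ZEB1, ZEB2, SNAI2 and TWIST2 higher and TWIST1 and PRRX1 lower, beside 21.3% and 24.7% of all genes. E had TWIST2 higher, by 1.16 ± 0.18 (edgeR, BH-adjusted p = 0.000647), and PRRX1 and TCF4 lower, beside 5.02% and 5.93% of all genes. PRRX1 fell in E by 3.74 ± 0.64 (edgeR, BH-adjusted p = 0.00127), with 7, 6 and 5 counts in E and 46, 44 and 73 counts in Parental. The TCF4 fall in E was lost in 7 alternatives, without E replicate 1, 2 or 3 or Parental replicate 2 or 3 (adjusted p = 0.0705 to 0.102) and in both tests on TPM (0.355 and 0.35), and the PRRX1 fall in E in both tests on TPM (0.444 and 0.224). The SNAI2 rise in M1 was lost without M1 replicate 2 or Parental replicate 2 or 3 (0.068 to 0.0897) and with the compared lines only (0.145), where that in M2 was lost too (0.0686). The PRRX1 fall in M2 was lost in 8 alternatives, without M2 replicate 1 or 3 or Parental replicate 2 or 3 (0.0569 to 0.143), with limma-voom (0.0624), with the compared lines only (0.0708) and in both tests on TPM (0.688 and 0.566). These 3 comparisons share the Parental libraries, and no fit with a library set term was possible for them because Parental stands in neither set.

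Summed over the 8 genes, the level was 198 ± 46 TPM in M1, 133 ± 21 in M2, 93.4 ± 24.4 in EM1, 113 ± 33 in EM2, 122 ± 33 in EM3, 43.9 ± 2.63 in E and 46.9 ± 13.8 in Parental (SD, n = 3 each). The lowest library of the 5 M and EM clones summed to 73.7 TPM, above the highest of E and Parental at 62.8 TPM. SNAI2 supplied 56.8 ± 12.8% of it in EM1, 34.2 ± 18.1% in EM2 and 51.9 ± 6.81% in EM3, against 30.5 ± 3.31% in E (SD, n = 3 each). TWIST2 supplied 2.87 ± 0.65% in EM1, 12.99 ± 4.40% in EM2 and 2.84 ± 0.92% in EM3, against 18.6 ± 1.3% in E.

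Within pairs of related genes the ratio of levels differed between lines. The ZEB1 level was 1.46 to 2.38 times that of ZEB2 in M1 libraries and 1.72 to 5.34 times in M2 libraries. It was 0.08 to 0.44 of ZEB2 in EM1, 0.12 to 0.40 in EM2, 0.56 to 1.23 in EM3, 0.03 to 0.14 in E and 0.02 to 0.10 in Parental. Every M library thus had more ZEB1 than ZEB2, and 1 of the 9 EM libraries did.

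The TWIST2 level was 5.22 to 21.6 times that of TWIST1 in M2 libraries, against 0.41 to 1.18 times in M1. It was 0.15 to 0.22 of TWIST1 in EM1 and 0.13 to 0.16 in EM3, while EM2 at 0.32 to 1.13 reached the range of E, 0.94 to 1.17. SNAI2 exceeded SNAI1 in 19 of 21 libraries, by 8.71 to 72.5 times in M2 and by 1.63 to 2.96 times in M1. The exceptions were EM2 replicate 2 (0.85) and Parental replicate 2 (0.20).

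**Figure D3:**
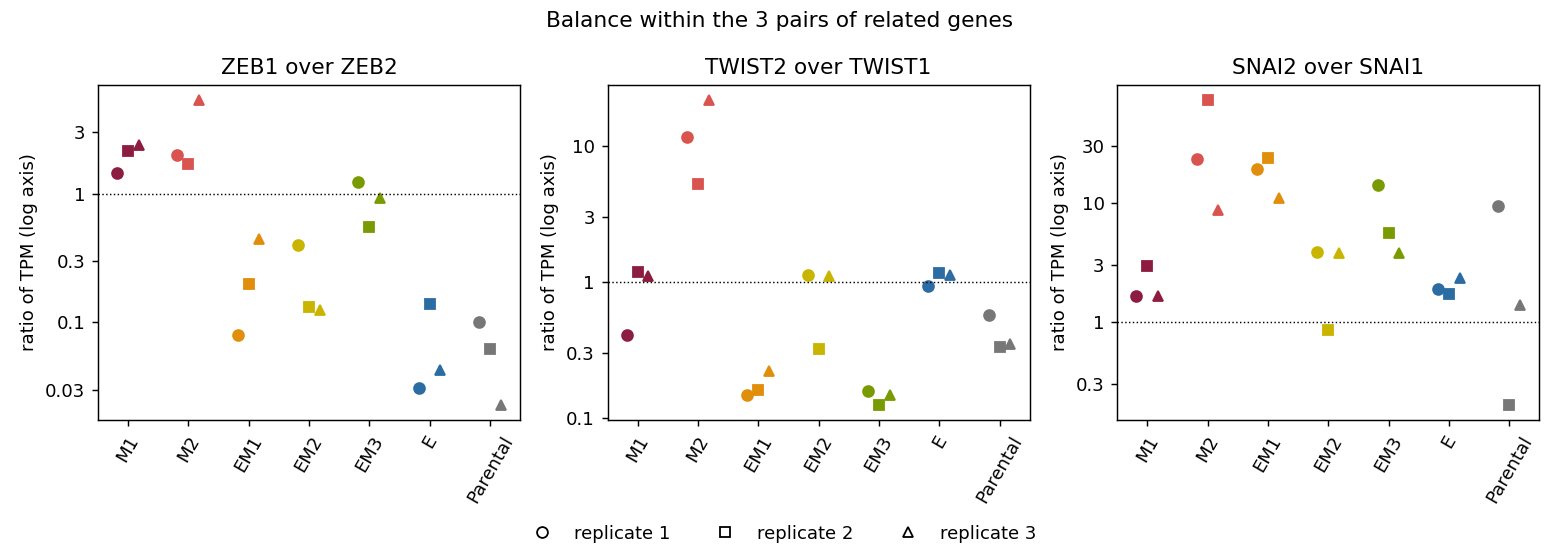
Ratio of TPM within 3 pairs of related genes in every library, on log axes, for M1, M2, EM1, EM2, EM3, E and Parental from left to right, with a dotted line at a ratio of 1. ZEB1 exceeds ZEB2 in the M libraries, and TWIST2 exceeds TWIST1 by 5.22 to 21.6 times in M2.

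Across the 21 libraries the genes did not move as 1 group. Pearson's r of log2(TPM + 1), given as a description because the libraries share lines and library sets, was 0.84 between ZEB1 and ZEB2 and 0.77 between ZEB2 and TWIST2. It was 0.66 between TWIST1 and TCF4 and 0.65 between TWIST1 and PRRX1. TWIST1 and TWIST2 gave -0.25, ZEB1 and TWIST1 -0.07, and SNAI1 and SNAI2 0.06.

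The same measure was taken over 10783 protein-coding genes with a symbol, a mean of at least 1 TPM and a range of log2(TPM + 1) of at least 1. The gene most like ZEB1 was SH2B3, an adaptor of cytokine receptors (r = 0.971), followed by HLA-B (0.964) and the kinase JAK1 (0.957). ZEB2 was most like DOCK11 (0.954), SNAI1 like AKR1C1 (0.877), SNAI2 like KLF6 (0.851) and TWIST1 like the histone gene H2AC6 (0.933). TWIST2 was most like CMBL (0.95) and PON2 (0.95), PRRX1 like SNAP25 (0.966) and TCF4 like OSGEPL1 (0.873). Each r covers the same 21 libraries, 3 per line.

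Epithelial genes that ZEB and SNAIL proteins are known to repress fell in numbers that differed between clones. Of the 23 on the list, 23 fell in M1, 22 in M2, 9 in EM1, 13 in EM2 and 15 in EM3, where 18.1%, 26.8%, 8.09%, 6.95% and 7.96% of all genes tested fell. The count was 5 in EM1 without EM1 replicate 1, and in EM2 it was 6 without EM2 replicate 1 or 2 and 8 without E replicate 2 or 3. The median log2 fold change was -6.82 in M1 and -8.77 in M2, or -6.55 and -7.59 with genes at 0 counts set at their bound of 3 counts per library. It was -1.15 in EM1, -1.34 in EM2 and -1.58 in EM3, beside 0.01 to 0.04 over all genes. The breast epithelium markers, some of them on this list, summed to 1601 to 2226 TPM in M1 and 1394 to 2475 TPM in M2. The sum was 4317 to 4351 TPM in E and 1963 to 3411 TPM in Parental. KRT7 supplied most of it in M1 and M2, at 1808 ± 309 and 1847 ± 528 TPM, against 2902 ± 62 in E (SD, n = 3 each). KRT5 stood at 33.2 ± 6.45 TPM in M1 and 0.36 ± 0.13 in M2, against 778 ± 46.9 in E (SD, n = 3 each).

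CDH1 stood at 0.12, 0.07 and 0.05 TPM in M1 and at 0.06, 0 and 0.10 TPM in M2, against 87.5, 117 and 118 TPM in E. Among the EM clones CDH1 fell in EM3, by 2.09 on the log2 scale (edgeR, BH-adjusted p = 0.0147), with 14.1, 42.3 and 48.6 TPM, a call lost without EM3 replicate 1 (adjusted p = 0.0814) or 2 (0.0644). It stood at 35.1, 27.0 and 78.4 TPM in EM1 and at 30.5, 26.8 and 95.1 TPM in EM2, where replicate 3, the library of the short set, was closest to E. CRB3, whose promoter is printed above, was at 2, 1 and 3 counts in M1 and at 0, 0 and 1 count in M2, against 740, 787 and 918 counts in E. It fell in EM2 by 1.57 and in EM3 by 1.084 on the log2 scale (edgeR, BH-adjusted p = 0.00634 and 0.0421). The EM3 call of CRB3 was lost in 10 of 31 alternatives, with a library set term (adjusted p = 0.188), on log2(TPM + 0.1) and without EM3 replicate 1, 2 or 3, E replicate 1, 2 or 3, M1 replicate 1 or EM2 replicate 1. The genes with the largest falls in EM1 were CLDN3, a tight-junction claudin (-4.48), MUC1, a surface mucin (-2.70), and KRT19, a keratin of simple epithelium (-2.35, lost without EM1 replicate 1 or 2).

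Epithelial transcription factors that oppose ZEB1 fell as well, 9 of 9 tested in M1 and 8 of 9 in M2 (18.1% and 26.8% of all genes), with TP63 higher in M2 by 2.99. GRHL2, a grainyhead factor that holds epithelial genes open, differed in direction between the M clones and EM1. Its counts were 3, 1 and 1 in M1 and 0, 1 and 1 in M2, against 1035, 965 and 892 in E. It rose over E by 1.53 in EM1, by 1.09 in EM2 and by 0.87 in EM3 (edgeR, BH-adjusted p = 0.00153, 0.0166 and 0.0448). The EM1 rise held in all 31 alternatives. The EM2 rise was lost with a library set term (adjusted p = 0.0707) and without EM2 replicate 1 or 2 or E replicate 2 or 3 (up to 0.0828). The EM3 rise was lost in 16 of 31 alternatives, up to adjusted p = 0.355 with a library set term, 12 of them leaving out a library (M1 replicate 2, EM1 replicate 1 or 2, EM2 replicate 1, EM3 replicate 1 or 2, or any of E or Parental). Its relative GRHL3 fell by 4.08 in EM1, by 3.48 in EM2 and by 5.29 in EM3, and GRHL1 by 2.14, 2.08 and 3.50, the EM2 fall of GRHL1 being lost without EM2 replicate 1 (adjusted p = 0.0501).

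MIR200CHG had 0 counts in all 6 M libraries, against 55, 64 and 61 counts in E. With a floor of 3 counts per library it was at least 17.8-fold lower in M1 and at least 14.7-fold lower in M2. In the EM clones it held 29, 10 and 23 counts in EM1, 16, 9 and 24 in EM2 and 16, 20 and 27 in EM3. It fell by 1.70 in EM2 and by 1.38 in EM3 (edgeR, BH-adjusted p = 0.0133 and 0.0314). The EM2 fall was lost without the filter on low counts (adjusted p = 0.0568) and without EM2 replicate 1 or 2 (up to 0.0708). The EM3 fall was lost in 7 of 30 alternatives, with a library set term (0.0985), without the filter (0.136) and without EM3 replicate 1 or 2 or E replicate 1, 2 or 3 (up to 0.126). MIR205HG, the host of miR-205, had 0 counts in M1, at least 167-fold lower than E, and 1, 4 and 1 counts in M2. It fell in EM2 by 1.84 (edgeR, BH-adjusted p = 0.00502), with 84, 143 and 177 counts there and 431, 603 and 658 in E.

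Mesenchymal effector genes rose in numbers that differed between clones. Of 22 tested, 18 rose in M1, 12 rose and 3 fell in M2, 3 rose and 4 fell in EM1, 10 rose and 1 fell in EM2, and 7 rose and 3 fell in EM3. Of all genes tested 18.1% rose in M1, 24.6% in M2, 9.84% in EM1, 6.95% in EM2 and 9.36% in EM3. The shares of all genes that fell were 18.1% in M1, 26.8% in M2, 8.09% in EM1, 6.95% in EM2 and 7.96% in EM3. The 4 falls in EM1 were 1 without EM1 replicate 1, the 3 in EM3 were 1 without EM3 replicate 1 or 2 or E replicate 1, 2 or 3, and the 10 rises in EM2 were 6 without EM2 replicate 1 or 2 or E replicate 1, 2 or 3. The 1 fall in EM2 was 2 without M2 replicate 3, EM1 replicate 1 or 3, EM2 replicate 3 or EM3 replicate 1 or 3. VIM, the gene of the intermediate filament vimentin, stood at 2664 ± 468 TPM in M1, 2102 ± 552 in M2, 706 ± 98.5 in EM1, 963 ± 435 in EM2 and 1255 ± 223 in EM3, against 13.8 ± 1.54 in E (SD, n = 3 each). The collagen gene COL1A1 stood at 659 ± 121 TPM in M1, 15.2 ± 3.52 in M2 and 27.4 ± 15.04 in EM2, against 6.17 ± 0.17 in E. SPARC and PDGFRA were higher in M2 than in M1 by 3.67 and 3.41 on the log2 scale (edgeR, BH-adjusted p = 6.85e-05 and 5.8e-05), with SPARC at 389.9 ± 241 TPM in M2 and 33.1 ± 16.4 in M1. COL1A1 and PDGFRA are also on the fibroblast marker list, whose part in these results was not tested.

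**Figure D4:**
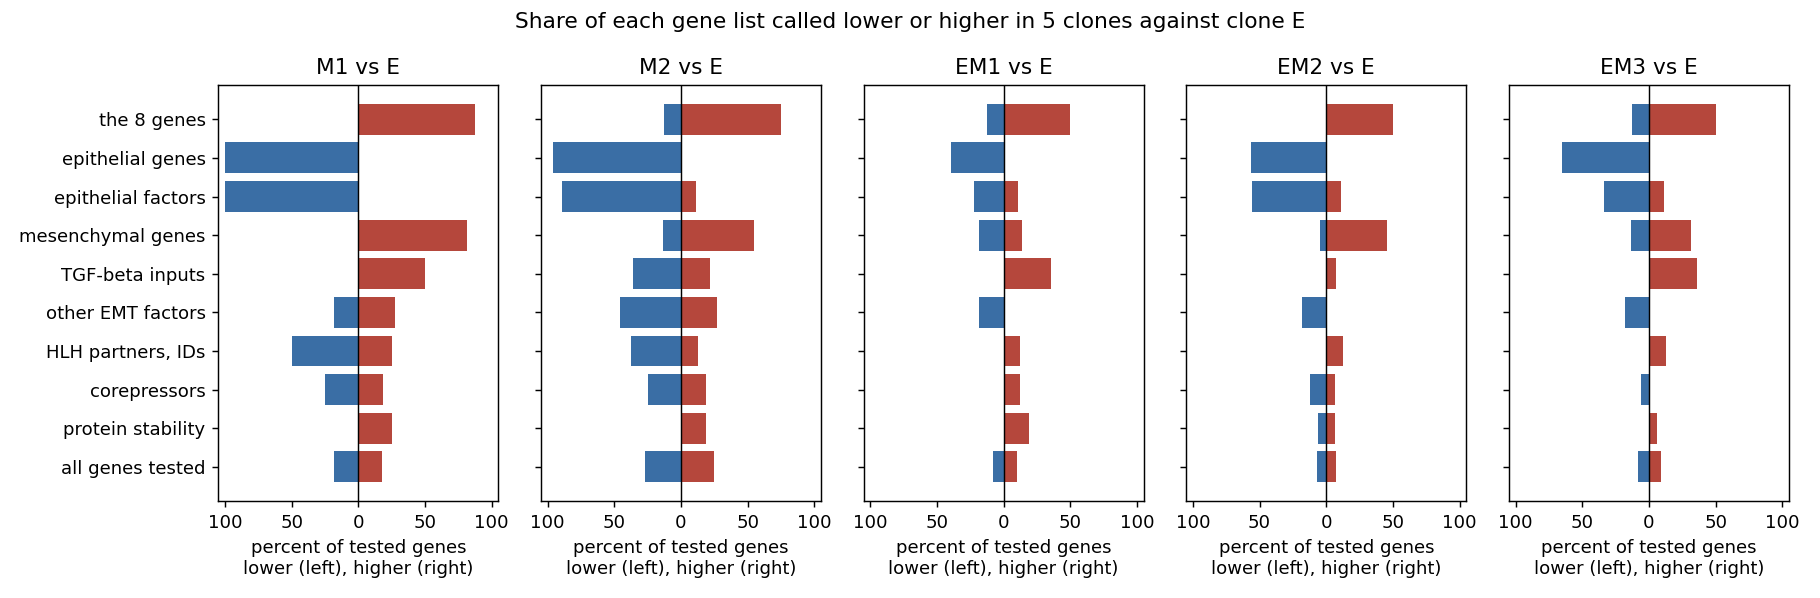
Share of tested genes called higher (right) and lower (left) in M1, M2, EM1, EM2 and EM3 against E, for the 8 factors, for the gene lists around them and for all genes tested, in percent. In M1 23 of 23 repressed epithelial genes lie on the lower side and 7 of the 8 factors on the higher side, beside 18.1% of all genes on each side.

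Of the 14 genes of the TGF-beta input list, 7 rose in M1, 5 in EM1, 5 in EM3 and 1 in EM2, while in M2 3 rose and 5 fell, beside 18.1% of all genes higher in M1, 9.84% in EM1, 9.36% in EM3 and 6.95% in EM2, and 24.6% higher and 26.8% lower in M2. The rises were 4 in M1 without M1 replicate 1 or E replicate 2 or 3, 3 in EM1 without E replicate 1 or 3, and 2 to 3 in EM3 without EM3 replicate 2 or 3 or E replicate 2 or 3. In EM2 2 rose without M1 replicate 3 or EM2 replicate 3. TGFBR1, a TGF-beta receptor, stood at 44.5 ± 12.2 TPM in M1, 12.9 ± 3.47 in M2, 32.5 ± 4.12 in EM1, 23.7 ± 4.63 in EM2 and 39.9 ± 2.72 in EM3, against 12.8 ± 1.34 in E (SD, n = 3 each). The ligand TGFB2 rose by 1.58 in M1, by 1.23 in EM1 and by 1.51 in EM3 and fell by 2.19 in M2 (edgeR, BH-adjusted p = 0.00528, 0.0416, 0.0148 and 0.000253). The TGFB2 rise in EM1 was lost in 11 of 31 alternatives, each of them leaving out a library (M1 replicate 2, EM1 replicate 2 or 3, EM2 replicate 1 or 3, EM3 replicate 1, any of E, or Parental replicate 2 or 3), and that in EM3 without EM3 replicate 3 or E replicate 2 or 3. TGFBR3, a co-receptor, rose by 3.46 in M1 and by 4.31 in M2.

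Other EMT-linked factors included some that moved in opposite directions in the 2 M clones. FOXC2, a forkhead factor, rose by 3.07 in M1 and by 4.33 in M2 and fell by 4.27 in EM1 and by 2.96 in EM3, the EM3 fall being lost without EM3 replicate 1 or 2 and both falls on log2(TPM + 1). PRRX2, the paralog of PRRX1, rose by 2.58 in M1 and fell by 4.76 in M2, 3.66 in EM1, 3.28 in EM2 and 4.94 in EM3. KLF8 had 54, 76 and 169 counts in M2 and 0 counts in each E library, at least 41.6-fold higher in M2. HMGA2, a chromatin factor, fell by 3.03 in M2, with 2.33 ± 0.62 TPM there and 26.2 ± 0.47 TPM in E (SD, n = 3 each). Of 11 tested, 3 rose and 2 fell in M1 and 3 rose and 5 fell in M2, beside 18.1% and 18.1% of all genes in M1 and 24.6% and 26.8% in M2. Without EM1 replicate 1 or EM2 replicate 2 or 3 the falls in M1 were 4.

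The helix-loop-helix partners of TWIST and TCF4 and their ID inhibitors had 2 of 8 higher and 4 lower in M1, and 1 higher and 3 lower in M2, beside 18.1% higher and 18.1% lower of all genes in M1 and 24.6% and 26.8% in M2. In the test on log2(TPM + 1) the 3 falls in M2 were not called. The rise in M2 became 2 without M1 replicate 1 or 3, M2 replicate 1 or 2, EM1 replicate 1 or 3 or Parental replicate 2. TCF12, another E protein, rose by 1.16 in M1 and by 3.23 in M2. ID4, an inhibitor of helix-loop-helix factors, had 8, 3 and 2 counts in M1 and 1, 0 and 1 in M2, against 243, 194 and 153 in E. ID2 and ID3 fell in M1 by 2.99 and 1.80. HAND2 rose in each EM clone, by 2.92 in EM1, 2.77 in EM2 and 2.59 in EM3, and with 0 counts in M2 it was at least 5.1-fold lower there.

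Corepressors recruited by ZEB and SNAIL, such as CTBP1, HDAC1, KDM1A and AJUBA, made up a list of 16. Of these 3 rose and 4 fell in M1 and in M2 (18.1% and 18.1% of all genes in M1, 24.6% and 26.8% in M2), so the list is not set apart from all genes by these counts. The 4 falls in M2 were 1 without E replicate 1 and 2 without E replicate 2 or M2 replicate 2. LOXL2, a lysyl oxidase that stabilises SNAIL, rose by 1.75 in M1 (edgeR, BH-adjusted p = 0.000305). In EM1 it gave 0.94 (edgeR, BH-adjusted p = 0.0439), lost in 14 of 31 alternatives (a library set term, limma-voom, and without M1 replicate 1 or 2, M2 replicate 1, EM1 replicate 1 or 2, EM2 replicate 1, or any of EM3 or E), and in EM2 1.16 (0.0177), lost with a library set term (0.0507) and without EM2 replicate 2 or E replicate 2 or 3 (up to 0.116). AJUBA rose by 1.15 in M1, a call lost without M1 replicate 3 (adjusted p = 0.0523), and by 1.96 in M2. Of 16 genes that act on the stability or phosphorylation of the factors, 4 rose in M1, 3 in M2 and 3 in EM1, beside 18.1%, 24.6% and 9.84% of all genes. The kinase PAK1, which phosphorylates SNAIL, rose in all 5 clones, by 0.68 in M1, 1.27 in M2, 1.22 in EM1, 0.87 in EM2 and 1.16 in EM3, with the M1 call lost without the filter on low counts (adjusted p = 0.101).

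For each gene RSEM gives a transcript length weighted by the abundance of its isoforms, described here with no test. For ZEB1 it was 3977, 3720 and 2195 bases in M1, 3385, 3368 and 2022 bases in M2 and 3351, 3058 and 2387 bases in EM3. For ZEB2 it was 5184, 5209 and 4155 bases in M1 and 4829, 4616 and 3940 bases in M2, against 3147, 3288 and 3627 bases in E. In each of M1, M2, EM1, EM2 and EM3 replicate 3 had the lowest value for ZEB1, ZEB2 and SNAI2. For TCF4 replicate 3 was lowest in M2, EM1, EM2 and EM3, but not in M1, with 1585, 3640 and 1740 bases. SNAI1, with 1 annotated transcript, stood at 1705 bases in every library, and TWIST2 stayed between 1299 and 1323 bases.

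**Figure D5:**
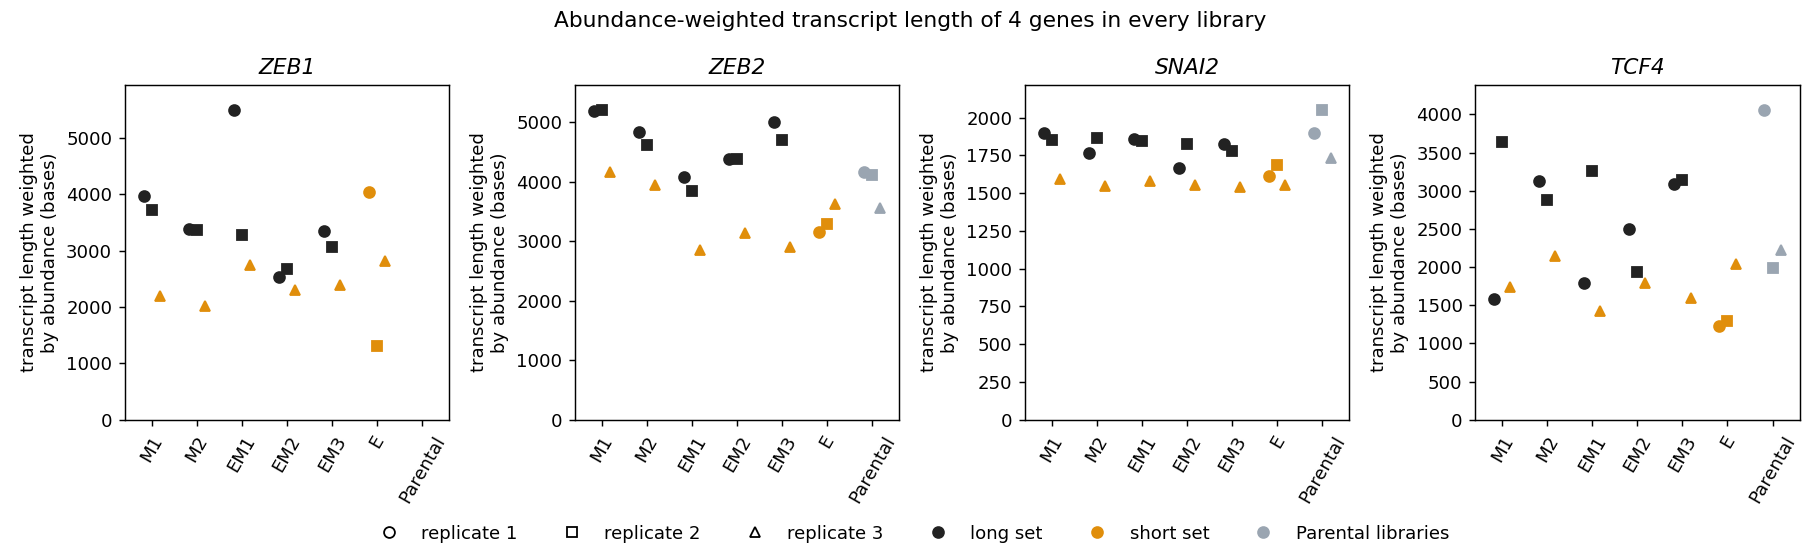
Abundance-weighted transcript length in bases for ZEB1, ZEB2, SNAI2 and TCF4 in every library, for M1, M2, EM1, EM2, EM3, E and Parental from left to right, coloured by library set, with lines of fewer than 10 counts per library left out. In the M and EM clones replicate 3, of the short set, lies lowest for ZEB1, ZEB2 and SNAI2.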

How the data were processed

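The 21 libraries were poly(A) RNA read from 1 end, 3 for each of 7 SUM149PT lines. The tools named by the submitters' processing notes are bcl2fastq 2.20.0.422, cutadapt 2.4, STAR 2.7.2b and RSEM 1.3.2, with build hg38, and the annotation release and strand setting are not given in the sources used here. Each deposited table held RSEM's expected count, TPM and lengths for every gene, per the file headers. In a library 7.44 to 8.61% of expected counts were not whole, but those of the 8 genes were. Positions come from GENCODE 29.

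Rounded expected counts went into edgeR 4.0.16 (R 4.3.3) with TMM scaling, a filter on low counts by line and the quasi-likelihood F-test. All 21 libraries entered 1 fit with 14 residual degrees of freedom, 12 comparisons were drawn from it, and p was BH-adjusted over 18632 genes. TMM factors ranged over 0.92 to 1.13, and the common BCV was 0.34. The SE of a log2 fold change was derived from the test, as its absolute value divided by the square root of F, and is approximate. Whether replicates were grown as separate cultures is not stated in the labels, so every p describes the spread between these libraries, which may be technical. Alternatives were no filter, a stricter filter at mean CPM 1, DESeq2 1.42.0 (size factors, Wald test), limma 3.58.1 (voom, and trend on log2(TPM + 1) and log2(TPM + 0.1)), the compared lines only, a replicate block, a library set term, and each library left out. The members and lists were chosen with earlier results of these data known. The genes named are the 8 members, the genes with the highest r to each, and list genes with the largest called changes or needed for a sentence. Same-numbered libraries were said to deviate together where r was above 0.1 for every number. That held in EM2 against EM1 (0.13, 0.11 and 0.75) and EM3 against EM2 (0.59, 0.76 and 0.78). The check cannot tell pairs from library set. Promoters and microRNAs are from RefSeq tables. Python 3.11.15 with pandas 2.3.3, numpy 2.4.6 and matplotlib 3.10.9 did the remaining work. A gene of the mesenchymal list is not reported here by name.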

Additional observations from a re-analysis of the deposited data

Results flagged for a closer look

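TWIST1 lay above E in every M1 library and below E in every M2 library, and M2 differed from M1 by -3.05 on the log2 scale (edgeR, BH-adjusted p = 0.000164). SNAI1 did the same, with -2.74 in M2 against M1 (edgeR, BH-adjusted p = 0.0169). Every EM library was also above E for TWIST1. The log2 fold changes over E differed from that of M2 by 2.201 in EM1, 2.75 in EM2 and 2.75 in EM3, and these differences were not tested. TWIST2 lay above E in every EM2 library and below E in every EM1 and EM3 library, with 2.45 in EM2 against EM1 (edgeR, BH-adjusted p = 1.23e-07) and -2.197 in EM3 against EM2 (edgeR, BH-adjusted p = 5.12e-07). It was above E in every M library too. The fold changes over E differed by 2.91 between M1 and EM1, 2.65 between M1 and EM3, 3.59 between M2 and EM1 and 3.34 between M2 and EM3, and these differences were not tested.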

How the results depend on the processing

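The 50 calls of a member were recomputed under 31 alternatives (30 against Parental), 1536 values in all. Of these 1424 kept the call and 112 lost it with the direction kept, none reversed, and 25 calls were kept throughout. Counts of called members stayed within 1.5 times in 97 of 117 values other than leaving out a library. The cause of the changes was not tested. On log2(TPM + 1) the count of members called against E was 4 in M2 (7 on counts), 2 in EM1 (5), 2 in EM2 (4) and 3 in EM3 (5), with 1 in E against Parental (3 on counts). On log2(TPM + 0.1) it was 3 in EM1, 2 in EM2 and 4 in M2 against E, 1 in EM3 against EM2 and 1 in E against Parental. Without the filter on low counts 7 were called in EM2 against E, 3 in EM2 against EM1 and 2 in EM3 against EM1. With the compared lines only it was 0 in EM3 against EM1 and 1 in EM3 against EM2, limma-voom gave 0 in EM3 against EM1, and the DESeq2 Wald test gave 2 in EM2 against EM1. With a library set term 3 were called in EM2 against EM1 and 2 in EM3 against EM1. With the replicate block 3 were called in EM2 against EM1 in place of 1, and 3 in EM3 against EM2 in place of 2. These are the 2 comparisons in which same-numbered libraries deviated together. In M2 against E, where they did not all do so, the block gave 8 in place of 7, and the number was the same in the other 9.

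Leaving out 1 library gave 3 to 5 in EM1 against E, 2 to 5 in EM2 against E and 3 to 6 in EM3 against E, with falls by over 1.5 times without E replicate 1, 2 or 3, and in EM2 also without EM2 replicate 2. It gave 5 to 7 in M1 and 6 to 7 in M2 against E, 3 to 4 in M2 against M1, 1 to 2 in EM2 against EM1 (2 without M2 replicate 2 or 3), 0 to 1 in EM3 against EM1 (0 without EM1 replicate 1, 2 or 3 or EM3 replicate 1 or 3) and 1 to 2 in EM3 against EM2 (1 without EM2 replicate 2 or 3 or EM3 replicate 1 or 3). Against Parental it gave 2 to 3 in E, 4 to 6 in M1 and 5 to 6 in M2. Numbers called over all genes under these alternatives are given here for the replicate block only. For the others, a change in the members cannot be told apart from a change over all genes. The lower counts of ZEB1 and PRRX1 in E and Parental limit the precision of their folds. All of E lies in the short set, so the set and the clone can be told apart only through replicate 3 of the other clones.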
